A study of Homo sapiens with 2 samples.

Results

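The SLC25 family, the mitochondrial carriers, was examined in K562, a human erythroleukemia line that carries the BCR-ABL1 fusion. Members were the genes of the authors' comparison table whose symbol is SLC25A followed by a number, without SLC25A37 and SLC25A38, matched by Entrez ID to the counts of both libraries. The rule gave 43 members among the 17392 genes of that table. One culture was kept for 48 h in 1 µM cabozantinib, a multikinase inhibitor whose targets include MET and the VEGF receptors, and the other in its solvent DMSO for the same time. Both were asynchronous cells of the same line in RPMI medium with 10% FBS. With 1 library of each kind, differences have neither a replicate check nor a p-value, and the intervals given are 95% intervals for counting error only.

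SLC25 proteins are built from repeats of paired membrane helices and, with few exceptions, sit in the inner mitochondrial membrane. They exchange metabolites between the cytosol and the matrix, where the membrane is otherwise closed to charged solutes. The ADP/ATP carriers and the phosphate carrier supply ATP synthase, the carboxylate and amino acid carriers run shuttles for reducing equivalents and carbon, and smaller subfamilies bring in cofactors. In erythroid cells the family is best known for the mitochondrial import of iron and glycine used in heme synthesis.

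The cabozantinib library held 25505289 counts over 16243 genes and the DMSO library 25025243 counts over 16631 genes. All 11 K562 markers were measured, at 77.5 to 12751 CPM (counts per 1e6 of the scaled library) with cabozantinib and 22.8 to 5708 CPM in DMSO, and their summed level was 37731 CPM with cabozantinib and 13692 CPM in DMSO. Summed markers of other cell types were low for T cells (2.83 CPM with cabozantinib and 10.3 CPM in DMSO), B cells (0.606 CPM with cabozantinib and 1.24 CPM in DMSO), fibroblasts (3.35 CPM with cabozantinib and 6.44 CPM in DMSO) and monocytes (9.20 CPM with cabozantinib and 17.7 CPM in DMSO). The B cell marker MS4A1 is not in the comparison table. The epithelial markers summed to 391 CPM with cabozantinib and 529 CPM in DMSO, with KRT8, KRT18 and EPCAM measured. The part of these shifts in the values below was not tested, and in bulk RNA fewer cells of a kind and less RNA per cell cannot be told apart.

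Of the 43 carriers 37 were measured, meaning at least 1 CPM in 1 or more libraries, and all 37 reached 1 CPM in both. With cabozantinib the glutathione carrier SLC25A39 was higher by 1.87-fold, and the uncoupling protein relative SLC25A14 and the ATP-Mg/phosphate carrier SLC25A41 were lower by 1.70-fold and 1.58-fold. A call required a difference of 1.5-fold or more and a counting interval that excluded no change. By this rule 1 of 37 measured carriers (2.70%) was higher, against 8.15% of all 12536 measured genes, and 2 of 37 (5.41%) were lower, against 12.3%. In either direction 20.5% of measured genes were called. The other 34 carriers lay within 1.5-fold, at log2 ratios between -0.46 and 0.34. The median log2 ratio was -0.13 for the carriers and 0.01 for all measured genes, and the median size without sign was 0.23 and 0.28 for the same sets. The counting interval alone was above no change for 12 carriers (32.4%, against 34.8% of all measured genes) and below it for 17 (45.9%, against 32.1%).

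The authors' deposited table put 0 of the 43 members at a posterior probability of change of at least 0.95, a level that 4.66% of its genes reached. SLC25A39 came nearest, with 0.875 in the authors' deposited table.

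**Figure D1:**
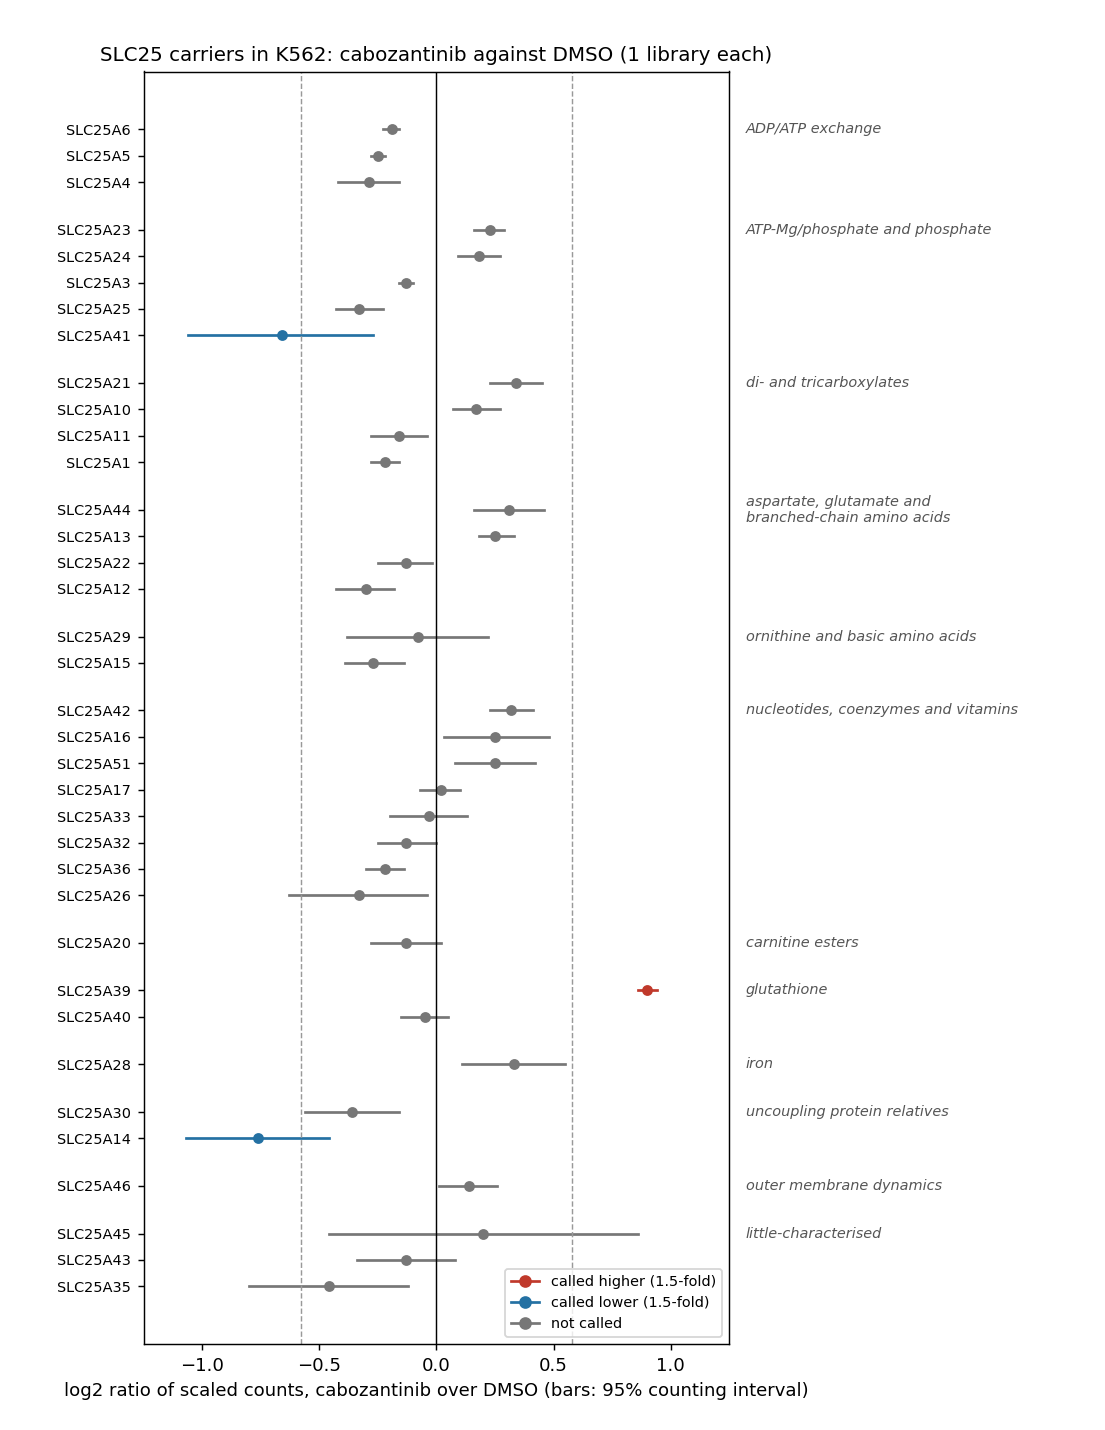
Log2 ratio of scaled counts, cabozantinib over DMSO, for 36 of the 37 measured SLC25 carriers by substrate group; bars are 95% counting intervals and dashed lines mark 1.5-fold. SLC25A39 is the 1 carrier past the line on the right, at 0.90, and SLC25A14 and SLC25A41 are past it on the left, at -0.76 and -0.66.

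SLC25A39 (Entrez 51629) lies on hg19 chromosome 17, 42396993 to 42402217 on the minus strand, with 12 exons in the deposited annotation. Together with SLC25A40 it is known to bring glutathione into mitochondria, and in mouse and zebrafish it has been tied to heme synthesis. It had 14468 counts with cabozantinib and 8063 counts in DMSO. Its level was 584 CPM with cabozantinib and 313 CPM in DMSO, a log2 ratio of 0.90 (0.86 to 0.94). SLC25A39 was the 1 carrier called higher among the 43 members, and its interval stayed above 1.5-fold throughout. Its paralog SLC25A40 (chromosome 7, 87463814 to 87505692) had 1535 counts with cabozantinib and 1650 counts in DMSO, a log2 ratio of -0.05 (-0.15 to 0.05). SLC25A40 shares 149 exon bases with DBF4 on the other strand, a gene at a log2 ratio of 0.32, and whether counting used strand is not stated. Per length, SLC25A39 held 94.8% of the pair's summed RPKM with cabozantinib and 90.5% in DMSO. Against SLC25A40 its counts were higher by a log2 difference of 0.95 (0.84 to 1.06).

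SLC25A14 (Entrez 9016), also called UCP5, is a relative of the uncoupling proteins on chromosome X, 129474047 to 129507335. It had 141 counts with cabozantinib and 249 counts in DMSO, or 5.69 CPM with cabozantinib and 9.66 CPM in DMSO. The log2 ratio was -0.76 (-1.07 to -0.46), so the interval reached inside 1.5-fold. SLC25A30, the kidney-type relative on chromosome 13 at 45967451 to 45992516, had 369 counts with cabozantinib and 492 counts in DMSO, a log2 ratio of -0.36 (-0.56 to -0.16) that did not reach 1.5-fold. Both measured relatives were thus below no change. SLC25A14 held 46.8% of the summed RPKM of these paralogs with cabozantinib and 53.8% in DMSO. A further relative, SLC25A27 or UCP4, had 2 counts with cabozantinib and 3 counts in DMSO.

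The promoters of SLC25A39 and SLC25A14 are printed because these were called in opposite directions, with that of the most abundant carrier, SLC25A5, as a member that was not called. The sequences are from RefSeq on GRCh38.p14, 250 bases before to 50 after the gene start, read 5′ to 3′ on the gene's strand, and capitals mark the GC box GGGCGG on either strand. Their positions are chr17:44324774-44325073 (minus strand), chrX:130339669-130339968 (plus strand) and chrX:119468194-119468493 (plus strand). RefSeq promoters were matched for 37 members, and SLC25A41 was not among them. These are not the same 37 as the measured members, since they include the 6 that were not measured.
SLC25A39: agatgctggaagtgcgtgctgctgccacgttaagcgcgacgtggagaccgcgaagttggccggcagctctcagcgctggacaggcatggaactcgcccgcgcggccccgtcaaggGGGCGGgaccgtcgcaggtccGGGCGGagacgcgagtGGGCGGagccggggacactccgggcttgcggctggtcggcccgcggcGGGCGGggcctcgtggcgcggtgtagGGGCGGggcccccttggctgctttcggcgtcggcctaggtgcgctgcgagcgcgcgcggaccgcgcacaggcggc
SLC25A14: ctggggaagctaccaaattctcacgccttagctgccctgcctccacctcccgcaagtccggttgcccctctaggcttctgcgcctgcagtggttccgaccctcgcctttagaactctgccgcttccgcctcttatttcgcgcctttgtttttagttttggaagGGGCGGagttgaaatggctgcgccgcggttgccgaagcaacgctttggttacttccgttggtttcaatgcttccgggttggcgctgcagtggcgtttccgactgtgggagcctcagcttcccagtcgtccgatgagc
SLC25A5: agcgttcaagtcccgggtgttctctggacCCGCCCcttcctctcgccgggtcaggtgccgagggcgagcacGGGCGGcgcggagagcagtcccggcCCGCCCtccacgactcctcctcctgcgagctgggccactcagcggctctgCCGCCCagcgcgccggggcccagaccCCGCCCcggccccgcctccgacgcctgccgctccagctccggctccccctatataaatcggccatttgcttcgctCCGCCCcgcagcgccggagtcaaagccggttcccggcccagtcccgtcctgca

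The GC box stood at 5 places in the SLC25A39 window, at 1 in that of SLC25A14 and at 6 in that of SLC25A5. Over the 37 carrier promoters 28 (75.7%) held it, against 44.6% of 27305 promoters of the same length. The carrier windows were also richer in G and C, with a median of 67.0% against 58.3% for all promoters, and the 2 shares were not adjusted for this. A GATA motif, AGATAA or TGATAA on either strand, stood in 4 carrier promoters (10.8%), those of SLC25A4, SLC25A21, SLC25A26 and SLC25A53, against 16.6% of all. The CCAAT box was found in 19 (51.4%, against 35.7% of all), the ETS motif CCGGAAG in 6 (16.2%, against 10.7%), the NRF1 motif (GCGCA, any base, GCGC) in 5 (13.5%, against 6.28%) and TATAAA in 2 (5.41%, against 12.0%), all on either strand. The SLC25A14 window held 1 ETS motif and the SLC25A5 window 1 TATAAA. These are matches of letters and not shown binding sites.

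Among the phosphate carriers, the ATP-Mg/phosphate subfamily split. These proteins load adenine nucleotides into the matrix in exchange for phosphate, most of them under control of calcium. SLC25A41 (Entrez 284427; chromosome 19, 6426048 to 6433790), which lacks the calcium-binding part, had 88 counts with cabozantinib and 145 counts in DMSO, a log2 ratio of -0.66 (-1.06 to -0.27). SLC25A25 (chromosome 9, 130830479 to 130871524) had 1400 counts with cabozantinib and 1834 counts in DMSO, a log2 ratio of -0.33 (-0.43 to -0.23). Against these, SLC25A23 (chromosome 19, 6440075 to 6459781) had 3993 counts with cabozantinib and 3548 counts in DMSO, a log2 ratio of 0.23 (0.16 to 0.29). SLC25A24 (chromosome 1, 108677445 to 108742974) had 2174 counts with cabozantinib and 1998 counts in DMSO, at 0.18 (0.09 to 0.27). Only SLC25A41 reached 1.5-fold of these 4. SLC25A23 held 53.6% of the subfamily's summed RPKM with cabozantinib and 48.3% in DMSO, and SLC25A25 held 16.7% with cabozantinib and 22.1% in DMSO. The counts of SLC25A25 against the other 3 were lower by a log2 difference of -0.53 (-0.64 to -0.41). SLC25A41 and SLC25A23 lie 6285 bases apart on the same strand.

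SLC25A3 (Entrez 5250; chromosome 12, 98987403 to 98995778), the phosphate carrier that feeds ATP synthase, had 14705 counts with cabozantinib and 16766 counts in DMSO. Its log2 ratio was -0.13 (-0.16 to -0.10), far inside 1.5-fold.

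All 3 measured ADP/ATP carriers, which export matrix ATP in exchange for ADP, had counting intervals below no change and none reached 1.5-fold. SLC25A5, the form of dividing cells (Entrez 292; chromosome X, 118602363 to 118605359), had 15799 counts with cabozantinib and 19549 counts in DMSO, a log2 ratio of -0.25 (-0.28 to -0.22). SLC25A6, which is listed on both X and Y because it lies in the pseudoautosomal region (X, 1505045 to 1511039), had 11199 counts with cabozantinib and 13326 counts in DMSO, at -0.19 (-0.23 to -0.16). SLC25A4, the heart and muscle form (chromosome 4, 186064417 to 186071538), had 867 counts with cabozantinib and 1100 counts in DMSO, at -0.29 (-0.42 to -0.16). The testis form SLC25A31 had 1 count in each library. Their summed level was 1125 CPM with cabozantinib and 1319 CPM in DMSO, a log2 ratio of -0.23 (-0.25 to -0.21). The balance of the forms was nearly the same, with SLC25A5 at 74.7% of the set's summed RPKM with cabozantinib and 75.3% in DMSO. By counts SLC25A5 held 56.7% with cabozantinib and 57.5% in DMSO. The deposited length of SLC25A6 may add its X and Y copies. Its RPKM would then be too low and the RPKM share of SLC25A5 too high. Of the 50-base windows of SLC25A5 transcripts 5.31% recur in other genes, mostly its pseudogenes, so a small part of its counts is uncertain. For SLC25A6 it was 0.993%, but windows were compared between different genes and do not show its own copy on Y. How reads that align to both copies were treated is not stated, so the whole count of SLC25A6 is uncertain.

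**Figure D2:**
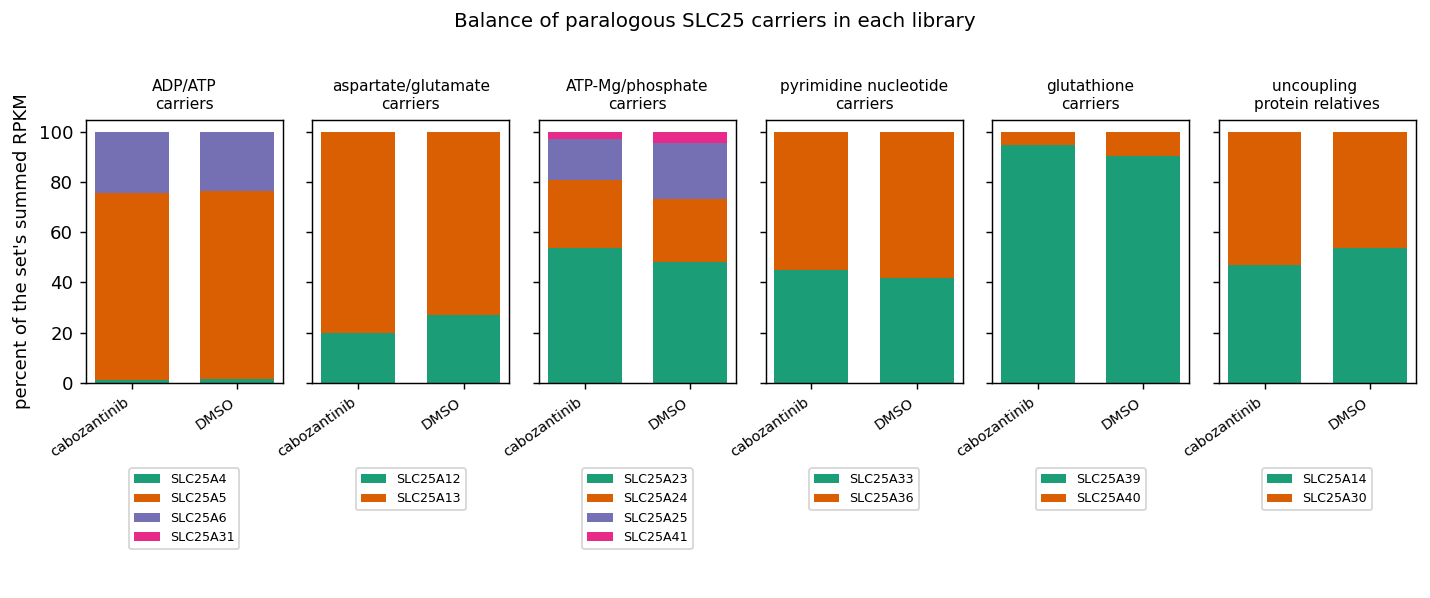
Share of each paralog in the summed RPKM of its set, in percent, in the cabozantinib library (left bar) and the DMSO library (right bar) of each panel. SLC25A13 fills 80.0% of its set with cabozantinib and 73.1% in DMSO, and SLC25A40 5.16% with cabozantinib and 9.49% in DMSO. The share of SLC25A6 rests on its deposited length, which may add its X and Y copies, and may be too low.

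The aspartate/glutamate carriers, which drive the malate-aspartate shuttle, differed from each other. SLC25A12, or Aralar (chromosome 2, 172639915 to 172750813), had 946 counts with cabozantinib and 1215 counts in DMSO, a log2 ratio of -0.30 (-0.43 to -0.18). SLC25A13, or citrin (chromosome 7, 95749532 to 95951459), had 3024 counts with cabozantinib and 2640 counts in DMSO, a log2 ratio of 0.25 (0.18 to 0.33). Neither reached 1.5-fold, while their ratio to each other did not stay the same: citrin was higher against Aralar by a log2 difference of 0.56 (0.41 to 0.70), just short of the 0.58 that 1.5-fold makes. Citrin held 80.0% of the pair's summed RPKM with cabozantinib and 73.1% in DMSO. This difference does not depend on how the libraries were scaled. The glutamate carrier SLC25A22 was at -0.13 (-0.25 to -0.02) and SLC25A44, a carrier of branched-chain amino acids, at 0.31 (0.16 to 0.46). SLC25A15, which exchanges ornithine for citrulline, was at -0.27 (-0.39 to -0.14), and the basic amino acid carrier SLC25A29 at -0.08 (-0.38 to 0.22).

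The di- and tricarboxylate carriers were divided, with 2 intervals above and 2 below no change and 0 calls. SLC25A1, the citrate carrier that exports carbon for lipid synthesis (Entrez 6576; chromosome 22, 19163094 to 19166301), had 4630 counts with cabozantinib and 5613 counts in DMSO, a log2 ratio of -0.22 (-0.28 to -0.16). The oxoglutarate carrier SLC25A11 of the malate-aspartate shuttle was at -0.16 (-0.28 to -0.04) and the dicarboxylate carrier SLC25A10 at 0.17 (0.07 to 0.27). SLC25A21, the oxodicarboxylate carrier (chromosome 14, 37147126 to 37641865), had 1444 counts with cabozantinib and 1185 counts in DMSO, at 0.34 (0.23 to 0.45), the highest ratio of the measured carriers that were not called.

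SLC25A10 shares 58.9% of its 50-base windows with 1 other gene model, AC139530.2. Whether that model lies at the same place was not examined, so its counts may be uncertain.

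An antisense gene shares 380 exon bases with SLC25A21 at its 5′ end and was itself called lower. SLC25A21-AS1 (chromosome 14, 37641231 to 37642999) had 63 counts with cabozantinib and 255 counts in DMSO, 3.87-fold lower (2.94 to 5.21). SLC25A25-AS1 (chromosome 9, 130873450 to 130881013), whose exons do not overlap those of SLC25A25, had 221 counts with cabozantinib and 134 counts in DMSO, 1.71-fold higher (1.38 to 2.14). SLC25A5-AS1 had 42 counts with cabozantinib and 64 counts in DMSO, with an interval that held no change (log2 -1.15 to 0.03). Without a stated strand setting, reads of a gene and its antisense partner cannot be told apart where they overlap.

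The 10 carriers of nucleotides, coenzymes and vitamins included 9 measured members and 0 calls, with a median log2 ratio of 0.02. SLC25A42, which imports coenzyme A, was the highest, with 2372 counts with cabozantinib and 1979 counts in DMSO, a log2 ratio of 0.32 (0.23 to 0.41). SLC25A16, also linked to coenzyme A, was at 0.25 (0.03 to 0.48), and SLC25A51, the importer of NAD, at 0.25 (0.08 to 0.42). SLC25A51 shares 34.6% of its 50-base windows with other genes, foremost its copy SLC25A52, so these 2 are uncertain individually. The peroxisomal SLC25A17 was at 0.02 (-0.07 to 0.10), a sign that turned under scaling by total counts. The pyrimidine nucleotide carriers were at -0.03 (-0.20 to 0.13) for SLC25A33 and -0.22 (-0.30 to -0.14) for SLC25A36. Of the windows of SLC25A33 20.6% recur in other gene models, and of those of SLC25A32 87.7%. SLC25A32 also shares 457 exon bases with DCAF13 on the other strand, so its value is uncertain. DCAF13 had 3064 counts with cabozantinib and 3147 counts in DMSO, a log2 ratio of 0.02. SLC25A32, the folate and FAD carrier, was at -0.13 (-0.25 to -0.00), and SLC25A26, the importer of S-adenosylmethionine, was lowest at -0.33 (-0.63 to -0.04) on 171 counts with cabozantinib and 224 counts in DMSO.

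SLC25A28, or mitoferrin-2, the iron importer of non-erythroid cells (chromosome 10, 101370275 to 101380221), had 377 counts with cabozantinib and 312 counts in DMSO. Its log2 ratio was 0.33 (0.11 to 0.55), short of 1.5-fold. Its erythroid counterpart SLC25A37, left out by the rule, was at 304 RPKM with cabozantinib and 79.1 RPKM in DMSO, while SLC25A28 was at 9.79 RPKM with cabozantinib and 7.79 RPKM in DMSO. By the same rule SLC25A37 was called higher, with a log2 ratio of 1.94 (1.89 to 1.99). The glycine carrier SLC25A38, also left out, had a log2 ratio of 0.12.

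Remaining measured carriers were not called. The carnitine and acylcarnitine carrier SLC25A20, needed for fatty acid oxidation, was at -0.13 (-0.28 to 0.02), and SLC25A46, an outer membrane protein of mitochondrial shape, at 0.14 (0.01 to 0.26). Of the little-characterised carriers SLC25A35 had the lowest ratio of the measured members that were not called, with 125 counts with cabozantinib and 179 counts in DMSO, at -0.46 (-0.80 to -0.12). It shares 849 exon bases with RANGRF on the other strand. SLC25A43 was at -0.13 (-0.34 to 0.08) and SLC25A45 at 0.20 (-0.46 to 0.86) on 43 counts with cabozantinib and 39 counts in DMSO. The 6 members below 1 CPM in both libraries were SLC25A27, SLC25A31, SLC25A34, SLC25A48, SLC25A52 and SLC25A53, with 0 to 10 counts with cabozantinib and 1 to 18 counts in DMSO. SLC25A2, SLC25A18 and SLC25A47 are counted at 0 in both libraries, where the one-sided 95% limit of a count of 0 is about 3 in each, and are not in the comparison table, so the rule did not take them.

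Levels between genes are given per length, as RPKM on the scaled library sizes. SLC25A5 was the highest carrier in both libraries, at 472 RPKM with cabozantinib and 561.6 RPKM in DMSO. By the deposited lengths SLC25A39 ranked 2 with cabozantinib at 363 RPKM and 3 in DMSO at 194 RPKM. SLC25A3 likewise ranked 3 with cabozantinib at 291 RPKM and 2 in DMSO at 319 RPKM. The counting intervals of these levels did not overlap within either library. Per length, the order of SLC25A39 and SLC25A3 was therefore reversed between the libraries beyond counting error. Without division by length, SLC25A3 had the higher value in both libraries. SLC25A3 was at 594 CPM with cabozantinib and 651 CPM in DMSO, and SLC25A39 at 584 CPM with cabozantinib and 313 CPM in DMSO. By the same lengths SLC25A6 followed at 152 RPKM with cabozantinib and 174 RPKM in DMSO. Its deposited length of 2968 bases is that of a gene listed on both X and Y. If that length adds both copies, the RPKM of SLC25A6 is too low. The ranks of SLC25A6, of SLC25A3 and, in DMSO, of SLC25A39 are therefore uncertain. SLC25A1 was at 108 RPKM with cabozantinib and 126 RPKM in DMSO. Below these 5 came a gap, as SLC25A23 was at 46.6 RPKM with cabozantinib and 39.8 RPKM in DMSO. SLC25A17 was at 40.5 RPKM with cabozantinib and 40.1 RPKM in DMSO, and SLC25A13 at 38.2 RPKM with cabozantinib and 32.1 RPKM in DMSO. Further down, carriers crowded together: of 36 neighbouring pairs in the order, 23 with cabozantinib and 24 in DMSO had overlapping counting intervals. The median was 14.8 RPKM with cabozantinib and 16.5 RPKM in DMSO for measured carriers, and 10.5 RPKM with cabozantinib and 10.4 RPKM in DMSO for all measured genes.

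**Figure D3:**
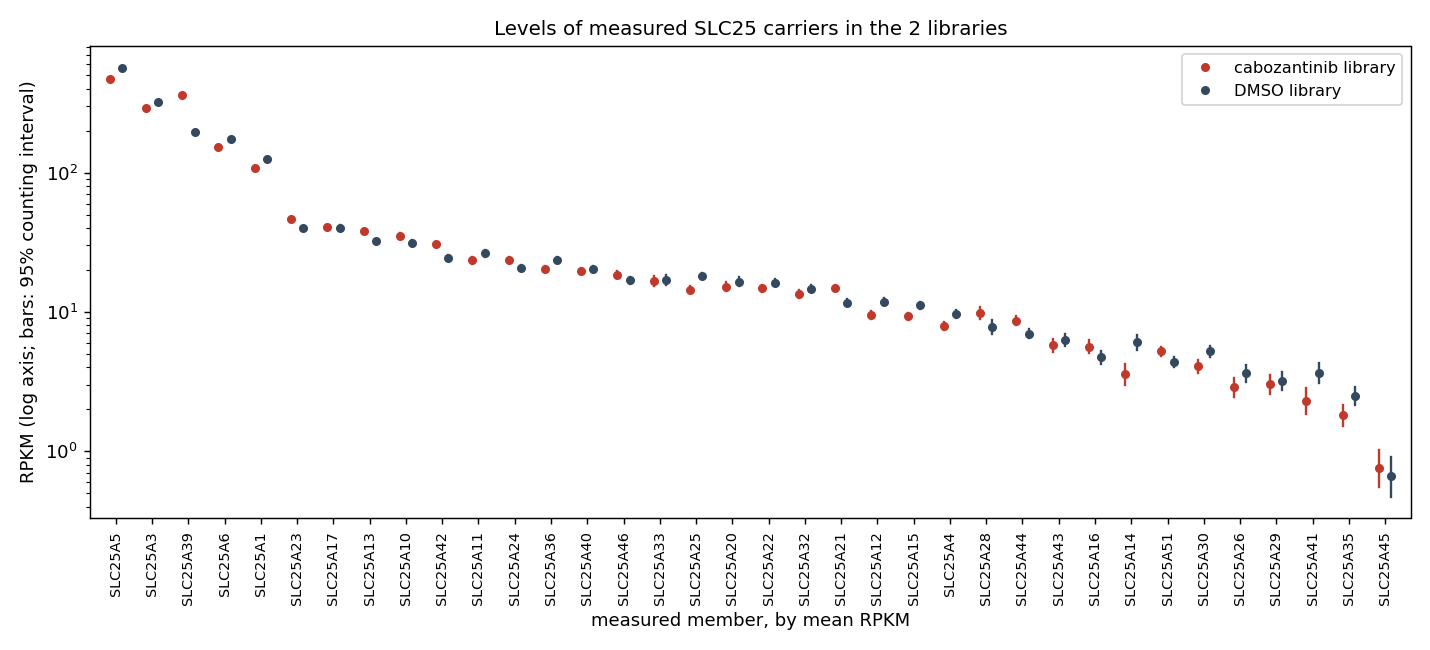
RPKM on a log axis for 36 of the 37 measured carriers in the cabozantinib library (left point of each pair) and the DMSO library (right point), ordered by the mean of both; bars are 95% counting intervals. The 5 highest carriers stand above 100 RPKM in both libraries, and SLC25A39 shows the widest gap among them, 363 RPKM with cabozantinib and 194 RPKM in DMSO. SLC25A6 is placed by its deposited length, which may add its X and Y copies, and may stand too low.

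The summed level of all 43 members hardly differed, at 3869 CPM with cabozantinib and 3847 CPM in DMSO, a log2 ratio of 0.01 (-0.00 to 0.02) that was -0.08 under scaling by total counts. Without SLC25A39 the sum was 3285 CPM with cabozantinib and 3534 CPM in DMSO, a log2 ratio of -0.11 (-0.12 to -0.09). The 4 highest carriers held 68.3% of the summed RPKM with cabozantinib and 67.5% in DMSO, and the share of SLC25A39 was 19.4% with cabozantinib and 10.5% in DMSO. That of SLC25A5 was 25.2% with cabozantinib and 30.3% in DMSO. These shares of RPKM use the deposited length of SLC25A6. If it adds the X and Y copies, the shares of SLC25A39 and SLC25A5 would be smaller. As a share of all counts, members took 0.376% with cabozantinib (exact interval 0.373% to 0.378%) and 0.396% in DMSO (0.394% to 0.399%).

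Genes that work with the carriers were examined as 5 further lists, read against the same 8.15% of measured genes called higher and 12.3% called lower. Among the 3 measured carriers under other names, the uncoupling protein UCP2 and the outer membrane MTCH1 and MTCH2, 0 were called, with log2 ratios from -0.06 to 0.15. In the list of carrier import, 1 of 16 was called higher and 0 lower (median log2 ratio 0.25). The called gene was TIMM22, the pore that inserts carriers into the inner membrane, at 27.5 CPM with cabozantinib and 17.9 CPM in DMSO, 1.54-fold higher (1.37 to 1.74), a call lost under scaling by total counts. Of 20 other mitochondrial transporters 2 were higher and 0 lower (median 0.07). ABCB6, a porphyrin transporter, was at 87.3 CPM with cabozantinib and 44.7 CPM in DMSO, 1.95-fold higher (1.82 to 2.10). ABCB10, an inner membrane transporter required for heme synthesis, was at 349 CPM with cabozantinib and 198 CPM in DMSO, 1.77-fold higher (1.71 to 1.83).

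Enzymes of the malate-aspartate and citrate shuttles included 3 called lower and 0 called higher of 14 measured (median log2 ratio -0.18). IDH1, an NADP-dependent isocitrate dehydrogenase, was at 125 CPM with cabozantinib and 333 CPM in DMSO, 2.65-fold lower (2.55 to 2.77). GOT1, the cytosolic aspartate aminotransferase, was at 127 CPM with cabozantinib and 281 CPM in DMSO, 2.21-fold lower (2.12 to 2.30). Malic enzyme ME1 was at 28.0 CPM with cabozantinib and 48.9 CPM in DMSO, 1.75-fold lower (1.59 to 1.92). The mitochondrial counterparts GOT2, IDH2 and ME2 had log2 ratios of -0.04, -0.24 and -0.31 and were not called, and neither were the cytosolic MDH1 (-0.15) and ACLY (-0.20).

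Of 30 measured enzymes that use carried cofactors and amino acids 5 were called lower and 3 higher (median log2 ratio -0.09). OAT, the matrix enzyme that makes and breaks ornithine, was at 461 CPM with cabozantinib and 164 CPM in DMSO, 2.81-fold higher (2.71 to 2.91), while the ornithine carrier SLC25A15 was at a log2 ratio of -0.27. FECH, which inserts iron into heme, was at 472 CPM with cabozantinib and 184 CPM in DMSO, 2.57-fold higher (2.48 to 2.65). MTHFD2, a matrix enzyme of folate metabolism, was at 311 CPM with cabozantinib and 710 CPM in DMSO, 2.29-fold lower (2.23 to 2.35), beside a log2 ratio of -0.13 for the folate carrier SLC25A32. The mitochondrial thymidine kinase TK2 was at 5.93 CPM with cabozantinib and 11.8 CPM in DMSO, 1.99-fold lower (1.63 to 2.44).

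**Figure D4:**
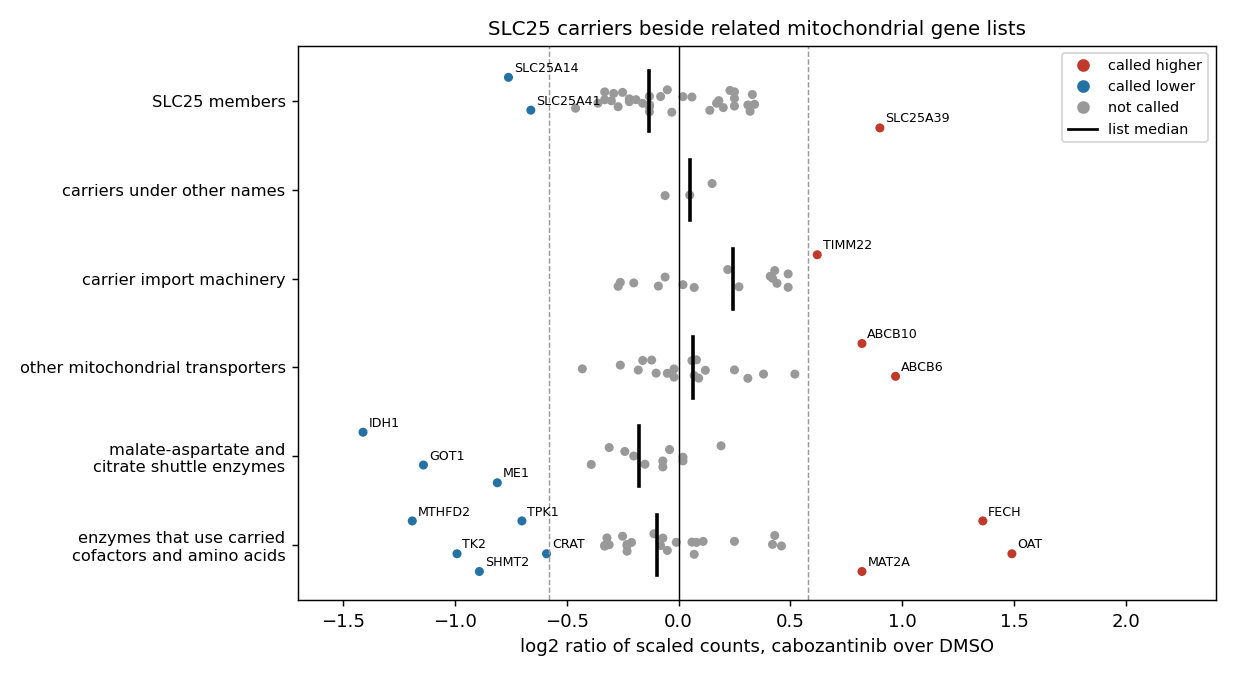
Log2 ratio, cabozantinib over DMSO, of measured SLC25 members and of the 5 related lists, with each point a gene, black bars the list medians and dashed lines 1.5-fold. Most carriers stay between the dashed lines with a median of -0.13, and the called genes of each list are named.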

How the data were processed

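RNA was measured by sequencing in 1 K562 library per group, grouped by the treatment label; total RNA was made into strand-specific TruSeq libraries per the labels' protocols. The authors deposited whole-number counts per Entrez gene, aligned with Rsubread to hg19 per the file headers; its version, the strand setting and the treatment of multiply aligned reads were not stated. The authors' deposited table adds posterior probabilities per gene and a fold ratio, read as cabozantinib over DMSO because the unscaled log2 count ratio minus its log2 was -0.056 to -0.039 in 11445 genes. Its 4 columns of values per condition carry no sample label and were not used.

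From the counts, TMM factors (0.971 for cabozantinib, 1.03 for DMSO; edgeR 4.0.16, R 4.3.3) gave CPM, RPKM by the deposited gene length, and log2 ratios with a pseudocount of 0.5. Intervals of ratios are exact (Clopper-Pearson, 95%), those of levels exact Poisson and those of paralog ratios exact conditional, with scipy 1.17.1 in Python 3.11.15. They cover counting error only. Genes under 1 CPM in both libraries were not called. The conditions could not be tested with single libraries. Alternatives were other scalings, filters, pseudocounts and fold thresholds. The computation of the intervals was checked on counts simulated with counting error only, which cannot speak to variation between cultures. Shared sequence was counted in 50-base windows, every 5 bases, of GENCODE transcripts of coding members, and includes overlapping gene models at the same place. All members enter the counts, medians and sums, and 1 measured member is not reported here by itself; counts or levels of both libraries are given for called members, their paralogs and the 8 highest by RPKM, and from each related list at most 4 called genes were named. Members and lists were chosen with earlier results of these data known. A few other values were named after they were seen, among them those of the antisense genes.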

Additional observations from a re-analysis of the deposited data

How the results depend on the processing

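Calls of 1 carrier higher and 2 lower were the same under scaling by total counts, DESeq2 1.42.0 size factors or upper quartile, without the filter, at 5 CPM, with a pseudocount of 2 and with the authors' deposited fold. At 2-fold 0 carriers were higher and 0 lower, with 340 and 722 of all genes. At a log2 size of 0.32 it was 3 higher and 6 lower, with 2404 and 2566 of all genes. A filter of 5 CPM left 1022 genes lower, since fewer were tested. The carriers' median log2 ratio ranged from -0.21 (total counts) to -0.13. Their summed level was 0.01, and gave -0.08 under total counts, -0.01 under upper quartile and -0.11 without SLC25A39, the last chosen after seeing the data. Total counts shifted every log2 ratio by -0.084, which turned the sign of SLC25A17, and split all calls into 757 higher and 1824 lower, against 1022 and 1543. By counts in place of RPKM, SLC25A39 held 90.4% of its pair with cabozantinib and 83.0% in DMSO. No paired analysis was possible because each group holds 1 library. Depth limits carriers under about 100 counts, such as SLC25A45 and SLC25A41, most.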

Other observations

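The surroundings of the called carriers on hg19 were looked at after their values were seen, and are read against 8.15% of all measured genes called higher, 12.3% lower and 20.5% in either direction. SLC25A39 lies 51491 bases from SLC4A1, the red cell anion exchanger, which was at 299 CPM with cabozantinib and 11.2 CPM in DMSO. Of 6 measured genes within 100 kb of SLC25A39, SLC4A1 and UBTF were called higher (log2 4.74 and 1.11), ITGA2B, a platelet integrin chain, lower (-1.13), and GRN, FAM171A2 and GPATCH8 were not called. Within 100 kb of SLC25A41, 0 of 8 measured genes were called, among them its paralog SLC25A23. Of the 2 measured genes near SLC25A14, ZNF280C was called lower (log2 -1.02) and RBMX2 was not (-0.01).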
